A study of Mus musculus with 12 samples.

Results

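The genes of the major histocompatibility complex (MHC) and of antigen presentation were followed in bulk RNA-seq of mouse liver. Members were all rows of the chow and HFCF count tables whose name starts with H2-, together with Cd74, B2m, Ciita, Nlrc5, Tap1, Tap2 and Tapbp. This gave 43 genes of the 23391 listed in either table, of which 41 were in the chow table, 42 in the HFCF table and 40 in both. By role, 31 belonged to class I, 11 to class II and 1 to neither. The last was H2-Ke6, an enzyme gene named for its place in the complex. The class I members include entries annotated as pseudogenes (H2-K2, H2-M10.5-ps1, H2-M6-ps and H2-T-ps) or polymorphic pseudogenes (H2-Bl, H2-Q5 and H2-T10). In GRCm38.p6, 39 of the 43 lie on chromosome 17, while B2m is on chromosome 2, Nlrc5 on 8, Ciita on 16 and Cd74 on 18.

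The series holds 12 liver libraries, 3 in each of 4 groups. All livers came from male C57BL/6N mice that were HuR flox/flox, the controls included. By the labels, mice of 4 to 6 months received AAV8-Tbg-Cre, a virus that expresses Cre from a promoter active in hepatocytes, or AAV8-Tbg-null as the WT control. The methods of the study instead describe a cross with albumin-Cre mice studied at 8 to 10 weeks. In both accounts Cre was directed to hepatocytes and not to the other cells of the liver. Elavl1 encodes HuR, an RNA-binding protein. Each genotype was taken on normal chow or after 16 weeks on HFCF, a diet with 40 kcal% fat, 2% cholesterol and 20 kcal% fructose. The labels number the libraries as replicates and name no mouse, so that each p-value measures only the spread between these libraries.

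The libraries held 30071731 to 35949203 counted reads each. Elavl1 went against the genotype label. Its level was 30.9, 29.3 and 31 CPM (counts scaled to a common library size) in chow WT and 42.8, 39.2 and 38.8 CPM in the chow livers labelled HuRHep-/-. In HFCF it was 23.9, 24.2 and 27.0 CPM in WT and 32.4, 32.2 and 34.2 CPM in the livers labelled HuRHep-/-. The groups did not overlap on either diet. On the log2 scale the difference came to 0.41 on chow (adjusted p = 0.0219, limma) and 0.38 on HFCF (adjusted p = 0.0327, limma), under the fold change of 1.5 needed for a call. Counts were summed over all exons, so the floxed exon was not seen apart. Groups keep the names of their labels below. Whether the labels of the genotypes were exchanged was not tested, and every genotype direction given here would turn if they were.

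Class I molecules pair a heavy chain with beta-2 microglobulin (B2m) on nearly all nucleated cells and present peptides from inside the cell, which the Tap transporter and tapasin (Tapbp) load in the endoplasmic reticulum. Class II molecules pair an alpha with a beta chain on professional antigen-presenting cells such as dendritic cells, B cells and macrophages. They travel with the invariant chain Cd74 to the endosome, where H2-M exchanges its remnant for an antigenic peptide and H2-O restrains H2-M. The transactivator Ciita switches on the class II genes, and its relative Nlrc5 serves class I. Hepatocytes, the bulk of liver RNA, express class I but normally little class II. In these bulk samples fewer cells of a type and less RNA per cell cannot be told apart.

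Class II promoters carry a Y box, an inverted CCAAT sequence bound by NF-Y, and classical class I promoters carry an enhancer A with a kappa B sequence. They are shown here for members whose levels are compared later. Of the 43 members, 30 had a promoter window in the RefSeq table for GRCm38.p6, from 250 bases before to 50 after the start. The core CTGATTGG of the Y box and the kappa B core GGGGATTCC of class I enhancer A were searched on both strands, and the 2 cores share no position in these windows. Of all 32851 windows, 4.1% held the first and 0.25% the second. Of 8 class II members with a window, 4 held CTGATTGG on the coding strand (H2-Aa, H2-Eb1, H2-Eb2 and H2-Oa) and 0 its reverse complement CCAATCAG. Of 21 class I members with a window, 0 held it on the coding strand and 11 held the reverse complement. The kappa B core was in 4 class I windows (H2-K1, H2-D1, H2-Q6 and H2-Q7) and in 0 class II windows. A match describes letters and was not tested as a binding site. A Y box with other letters would not be found by this core, so a window without a match may still hold one, in class I as in class II.

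The next 4 sequences are the 200 bases before the start, with matches in capitals. H2-Aa (chr17:34287824-34288023, minus strand) and H2-Eb1 (chr17:34305667-34305866, plus strand) encode a class II alpha and a beta chain, and H2-D1 (chr17:35262894-35263093, plus strand) encodes a classical class I heavy chain. H2-Q10 (chr17:35469889-35470088, plus strand), which encodes a class I heavy chain secreted by the liver, is shown as a class I window that held neither match.
H2-Aa: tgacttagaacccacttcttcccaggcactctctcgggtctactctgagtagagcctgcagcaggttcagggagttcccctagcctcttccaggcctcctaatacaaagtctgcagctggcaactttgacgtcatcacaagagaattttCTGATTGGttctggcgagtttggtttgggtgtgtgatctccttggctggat
H2-Eb1: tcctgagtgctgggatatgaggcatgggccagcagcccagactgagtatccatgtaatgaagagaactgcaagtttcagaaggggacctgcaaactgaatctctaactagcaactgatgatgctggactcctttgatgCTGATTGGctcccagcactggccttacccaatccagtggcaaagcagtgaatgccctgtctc
H2-D1: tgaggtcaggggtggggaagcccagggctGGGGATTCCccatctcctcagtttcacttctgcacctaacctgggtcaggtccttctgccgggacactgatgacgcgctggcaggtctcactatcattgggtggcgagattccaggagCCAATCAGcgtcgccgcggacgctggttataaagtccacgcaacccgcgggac
H2-Q10: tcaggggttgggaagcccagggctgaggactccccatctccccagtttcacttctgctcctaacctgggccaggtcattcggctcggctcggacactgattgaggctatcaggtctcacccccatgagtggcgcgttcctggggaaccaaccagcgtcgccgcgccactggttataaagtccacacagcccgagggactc
In H2-Aa and H2-Eb1 the match stood 51 and 62 bases before the start. In H2-D1 the reverse complement, a CCAAT sequence that is not taken here as a Y box, stood 53 bases and the kappa B core 171 bases before it.

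Class I RNA was far above class II RNA in every library, and the gap was smallest in the HFCF livers labelled HuRHep-/-. Levels were summed per kb of exon over the protein-coding class I heavy chains with B2m, and over the class II chains with Cd74. The class I sum was 3113 ± 84.9 CPM per kb (SD, n = 3) in chow WT, 2694 ± 38.5 in the chow livers labelled HuRHep-/-, 3106 ± 152 in HFCF WT and 2868 ± 99.2 in the HFCF livers labelled HuRHep-/-. The class II sum was 76.7 ± 31, 51.9 ± 15.5, 118 ± 51.7 and 232 ± 43.6 CPM per kb in the same order. As a percent of class I, class II thus came to 1.59, 3.57 and 2.24 in chow WT and to 1.79, 2.53 and 1.44 in the chow livers labelled HuRHep-/-. In HFCF it came to 3.79, 2.26 and 5.21 in WT and to 9.40, 6.28 and 8.65 in the livers labelled HuRHep-/-. The last group lay above the other 9 libraries, which overlapped among themselves. The mean log2 ratio of class II to class I was -5.42 ± 0.58 (SD, n = 3), -5.74 ± 0.41, -4.82 ± 0.61 and -3.65 ± 0.31. These sums are a description over chosen genes and carry no test.

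**Figure D1:**
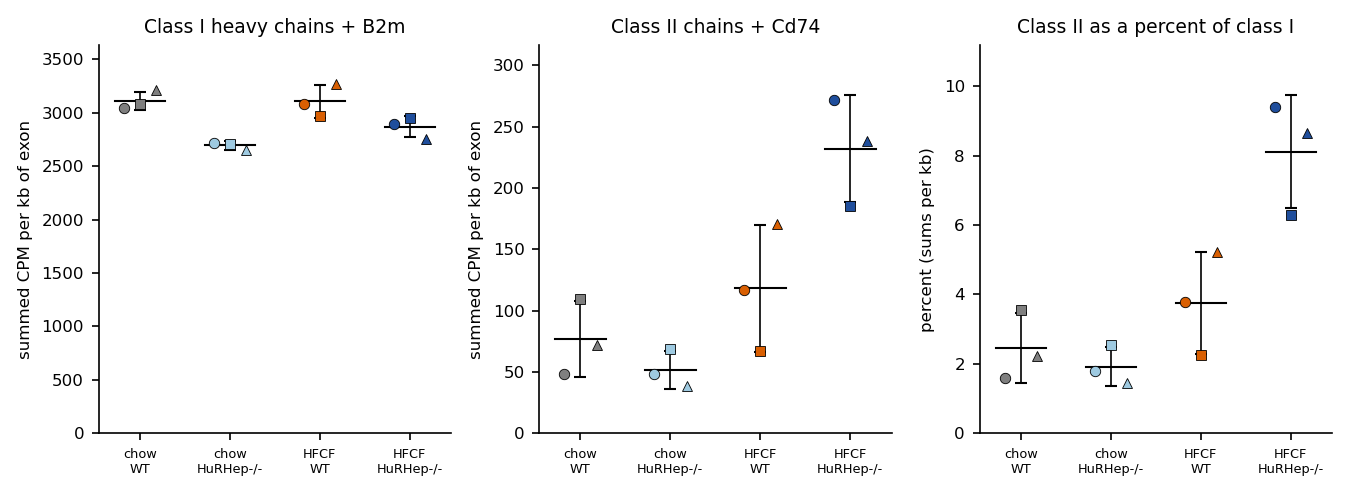
Summed levels of class I (heavy chains and B2m) and class II (chains and Cd74) in CPM per kb of exon, and class II as a percent of class I, in the 4 groups. Each point is a library (circle, square and triangle for replicates 1, 2 and 3), lines are means and bars SD. The class I means lie between 2694 and 3113, while class II reaches 9.40% of class I in the HFCF livers labelled HuRHep-/- and at most 5.21% elsewhere.

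Within class I, B2m was the most abundant transcript per kb of exon in each group, with 1967 ± 84.2 CPM per kb (SD, n = 3) in chow WT. H2-Q10 followed with 456 ± 9.40, H2-K1 with 379 ± 28.5 and H2-D1 with 181 ± 14.4 CPM per kb. These 4 levels were separated by more than their SD. H2-Q10 held 50.1% ± 1.84 (SD, n = 3) of the CPM of the protein-coding class I heavy chains in chow WT and 49.1% ± 1.84, 53.2% ± 3.07 and 49.3% ± 1.08 in the other groups, in the order above. These shares are not scaled by exon length, and H2-Q10 has the longest exons of these genes (4348 bases). Of its sequence 30.8% occurs in other genes, mainly H2-Q7. Within class II, Cd74 led with 43.8 ± 18.9 CPM per kb in chow WT, and H2-Eb1 (13.6 ± 5.33), H2-Ab1 (10.8 ± 4.2) and H2-Aa (8.54 ± 2.64) followed in this order in each chow WT library, with ranges over the libraries that overlapped. H2-DMb1, a chain of H2-M, stood at 2.17 ± 0.65 CPM per kb. The 9 members that passed no filter on low counts (H2-M10.1, H2-M10.4, H2-M10.5-ps1, H2-M10.6, H2-M11, H2-M5, H2-M6-ps, H2-T3 and H2-Eb2) had at most 9 counts in any library.

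The first comparison asked how the livers labelled HuRHep-/- differed from WT on chow. No member was called in either direction. To be called, a gene needed a limma p adjusted over all genes tested (Benjamini-Hochberg) of 0.05 or less, a 1.5-fold difference or more, and a sum of 10 or more counts in both groups. Among the 13526 genes tested, 1.27% were called higher and 0.969% lower. Of the 31 members tested, 7 had an unadjusted p under 0.05, beside 3185 of the 13526 genes, and voom weights called 0 members as well. The median log2 fold change was -0.10 over 21 class I members and -0.41 over 9 class II members, beside 0.0046 over all genes tested. Log2 fold changes here are on the scale of log2 CPM with a pseudocount of 0.5, which understates changes of low genes.

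Several abundant class I genes had lower values in the livers labelled HuRHep-/-, but passed neither the p nor the fold limit, and others overlapped between the groups. H2-K1, a classical heavy chain, was at 1030, 1198 and 1116 CPM in chow WT and at 877, 909 and 823 CPM in the livers labelled HuRHep-/-. These groups did not overlap, with a log2 fold change of -0.35 (95% CI -0.55 to -0.15, adjusted p = 0.0678, limma). B2m was at 1688, 1621 and 1766 CPM in WT and at 1500, 1465 and 1492 CPM in the livers labelled HuRHep-/-, again without overlap, with a log2 fold change of -0.18 (adjusted p = 0.216, limma). H2-Q10 was at 1950, 1973 and 2029 CPM against 1604, 1665 and 1630 CPM, with a log2 fold change of -0.27 (adjusted p = 0.0946, limma). H2-T23, which encodes Qa-1, the ligand of an inhibitory receptor of NK cells, had a log2 fold change of -0.23 (adjusted p = 0.211, limma). H2-D1, the other classical heavy chain of these mice, was at 430, 504 and 464 CPM against 465, 471 and 390 CPM, with groups that overlapped (log2 fold change -0.07, adjusted p = 0.706, limma). The groups also overlapped for H2-T22 and H2-Q7, with log2 fold changes of -0.06 and 0.14 (adjusted p = 0.61 and 0.578, limma). The summed level of 8 hepatocyte markers was lower in the same livers, with 99200 to 122550 CPM in chow WT and 78823 to 89180 CPM in the chow livers labelled HuRHep-/-, and its part in the class I values was not tested. Values did not overlap between the groups for 5 of 21 class I members, all lower, and for 0 of 9 class II members. H2-Ke6 was lower without overlap too, and 97.9% of its sequence is shared with the gene model Gm20427. Over all genes tested the groups did not overlap for 14.8% (higher) and 14.5% (lower).

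Most class II estimates in chow were below 0, with a wide spread. The log2 fold changes were -0.68 for H2-Aa (adjusted p = 0.147), -0.65 for H2-Ab1 (0.251), -0.72 for H2-Eb1 (0.265), -0.41 for Cd74 (0.466) and -0.67 for H2-DMb1 (0.213, all limma). Chow WT replicate 2 was the highest chow library for each of these genes and for H2-DMa and Ciita. Without it the adjusted p of Cd74 was 0.874, the highest among the fits that left out 1 library. H2-DMb2, a second gene for the H2-M beta chain, pointed upwards (log2 fold change 1.16, adjusted p = 0.288, limma), with only 4 to 37 counts per chow library. With 1 library left out, its log2 fold change ran from 0.47 to 1.65. Other genes, mainly H2-DMb1, share 42.5% of its 31-base words, and the authors' counting could have split such reads.

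The same comparison in HFCF gave class II values about 2-fold higher in the livers labelled HuRHep-/-, again without a call. Among 14295 genes, 2.15% were called higher and 1.47% lower, and 0 of the 34 members tested. Unadjusted p was under 0.05 for 13 members, beside 4218 of the 14295 genes, and voom weights called 0 members. The median log2 fold change was 0.86 over 10 class II members and 0.074 over 23 class I members, beside -0.0016 over all genes tested. Values did not overlap between the groups for 8 of 10 class II members, all higher in the livers labelled HuRHep-/-, and for 8 of 23 class I members, 5 higher and 3 lower. Over all genes tested this held for 18.7% (higher) and 17.5% (lower).

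H2-Aa, the alpha chain of the A molecule, was at 50.6, 27.1 and 72.8 CPM in HFCF WT and at 108, 76.4 and 97.4 CPM in the HFCF livers labelled HuRHep-/-. The lowest of the latter lay just above the highest WT library, and the fold change was 1.98 (95% CI 1.16 to 3.39, adjusted p = 0.106, limma). Its partner H2-Ab1 was at 43.6, 23.4 and 64.6 CPM against 69.4 to 97.2 CPM, a fold change of 2.05 (95% CI 1.18 to 3.55, adjusted p = 0.101, limma). H2-Eb1 encodes the E beta chain, and no gene of the E alpha chain is among the members. Its fold change was 2.17 (95% CI 1.22 to 3.84, adjusted p = 0.0937, limma). Cd74 was at 111, 67.2 and 161 CPM in WT and at 264, 179 and 225 CPM in the livers labelled HuRHep-/-, a fold change of 2.04 (95% CI 1.25 to 3.33, adjusted p = 0.0802, limma). The H2-M genes H2-DMa, H2-DMb1 and H2-DMb2 had fold changes of 1.77, 1.87 and 1.58 (adjusted p = 0.128, 0.123 and 0.1, limma). H2-Ob, a chain of H2-O, was at 1.38-fold (adjusted p = 0.178, limma), and Ciita at 1.54-fold with groups that overlapped (adjusted p = 0.235, limma).

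HFCF WT replicate 2 was the lowest HFCF library for H2-Aa, H2-Ab1, H2-Eb1, Cd74, H2-DMa, H2-DMb1 and Ciita, and replicate 3 the highest WT library. Without HFCF WT replicate 3, 5 members were called (H2-Aa, H2-Ab1, H2-Eb1, Cd74 and H2-Q1), with adjusted p of 0.0408, 0.0383, 0.0397, 0.0337 and 0.0412 (limma). In the same fit all genes called went from 517 to 850. Without HFCF replicate 1 of the livers labelled HuRHep-/-, the adjusted p of these 5 genes ran from 0.23 to 0.273.

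Some cell type markers were called in this comparison too. Called higher in the HFCF livers labelled HuRHep-/- were 1 of 9 markers of monocytes and recruited macrophages, 1 of 7 of stellate cells and 2 of 5 tested of cholangiocytes, and 0 of 7 of Kupffer cells, 0 of 8 of dendritic cells and 0 of 6 of B cells, beside 2.15% of all genes. Summed levels did not overlap for cholangiocyte markers (38.6 to 87.4 CPM in WT, 133 to 242 CPM in the livers labelled HuRHep-/-) or stellate cell markers (67.2 to 176 against 191 to 251 CPM), nor for neutrophil markers (2.26 to 3.40 against 4.33 to 5.61 CPM) or hepatocyte markers, which were lower (71241 to 81025 against 64884 to 69791 CPM), and overlapped for recruited macrophage markers (31.9 to 110 against 93.0 to 137 CPM). The part of these cells in the class II values was not tested.

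Class I estimates in HFCF pointed both ways. H2-K1 was at 1196, 1200 and 1183 CPM in WT and at 969, 1063 and 993 CPM in the livers labelled HuRHep-/-, lower in all 3 with a fold change of 0.835 (95% CI 0.737 to 0.947, adjusted p = 0.0834, limma). H2-Q10 had a fold change of 0.801 (adjusted p = 0.142, limma) and B2m of 0.94 (95% CI 0.812 to 1.09, adjusted p = 0.543, limma). H2-Q4, a Qa region heavy chain, was at 41.8, 33.3 and 39.2 CPM in WT and at 50.4, 49.0 and 50.7 CPM in the livers labelled HuRHep-/- (fold change 1.30, adjusted p = 0.0531, limma), with 38.5% of its sequence shared with other genes. H2-M3, which presents N-formylated bacterial peptides, was at 1.34-fold (adjusted p = 0.161, limma). H2-Q1 was 2.26-fold in HFCF (adjusted p = 0.103, limma) and 2.24-fold in chow (adjusted p = 0.111, limma).

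Whether the genotype difference varied with diet was tested as an interaction over all 12 libraries. In chow 7 of 9 class II estimates were below 0, the others being H2-DMb2 and H2-Ob, and in HFCF 10 of 10 were above 0. No gene was called, 0.0% of 14535 in either direction. With voom weights 0 genes were called too. Without those weights 2086 genes had an unadjusted p under 0.05, 5 of them among the 34 members tested. The 5 were H2-Aa, H2-Ab1, H2-Eb1, Cd74 and H2-DMb1. Their interaction terms on the log2 scale were 1.69 (95% CI 0.69 to 2.68), 1.70 (0.58 to 2.82), 1.85 (0.63 to 3.08), 1.46 (0.40 to 2.52) and 1.60 (0.56 to 2.64), with adjusted p of 0.176, 0.205, 0.206, 0.232 and 0.204 (limma). The term was 0.11 for H2-K1 (95% CI -0.13 to 0.35, adjusted p = 0.677, limma) and 0.11 for B2m (95% CI -0.13 to 0.36, adjusted p = 0.683, limma). The median term was 1.24 over 10 class II members and 0.12 over 23 class I members, beside 0.0048 over all genes tested. A difference of the genotype effect between diets is therefore not shown for any member by this threshold.

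**Figure D2:**
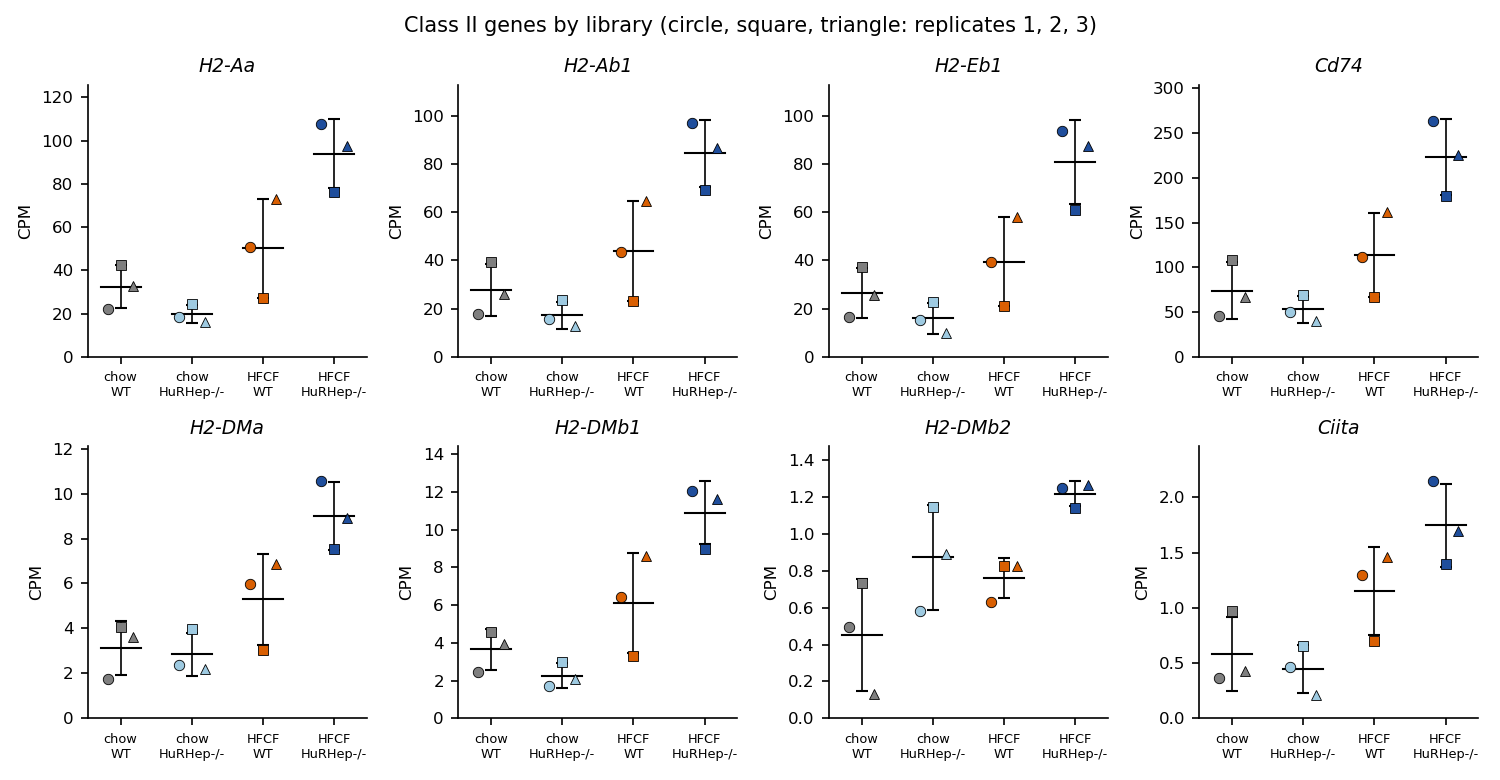
Levels in CPM of 8 class II genes in the 4 groups, 3 libraries each, with means (lines) and SD (bars). The HFCF livers labelled HuRHep-/- lie highest for H2-Aa, H2-Ab1, H2-Eb1 and Cd74, where the lowest of them (76.4, 69.4, 61.2 and 179 CPM) stands above every other library.

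Diet was compared within each genotype. Diet and count table cannot be told apart here. The groups of both comparisons share no library with each other, but the fit over 12 libraries was the same, with a shared variance. Their p-values are therefore not independent. In the livers labelled HuRHep-/-, 14 of 34 members tested rose under HFCF and 0 fell, 7 of 10 in class II and 7 of 23 in class I. Over all 14535 genes 14.2% were called higher and 4.9% lower. The median log2 fold change was 2.07 over class II and 0.53 over class I, beside 0.0023 over all genes tested. Groups did not overlap for 9 of 10 class II and 15 of 23 class I members, all higher in HFCF, beside 27.5% (higher) and 27.1% (lower) of all genes. H2-M2, H2-T-ps and H2-Oa passed the filter on low counts only with the HFCF libraries, so for them the filter favours rises in these counts.

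The class II chains and Cd74 rose 4.24-fold to 5.25-fold in the livers labelled HuRHep-/-. H2-Eb1 went from 15.5, 22.7 and 9.91 CPM in chow to 94.0, 61.2 and 87.7 CPM in HFCF, 2.39 on the log2 scale (standard error 0.40, adjusted p = 0.00112, limma). H2-Ab1 went from 15.6, 23.5 and 12.7 to 97.2, 69.4 and 86.6 CPM (log2 fold change 2.33, standard error 0.36, adjusted p = 0.000825, limma). Every HFCF library stood well above every chow library of this genotype. H2-Aa went from 18.6, 24.5 and 16.2 to 108, 76.4 and 97.4 CPM (log2 fold change 2.25, standard error 0.32, adjusted p = 0.000529, limma). Cd74 went from 50, 69.6 and 40.2 to 264, 179 and 225 CPM (log2 fold change 2.08, standard error 0.34, adjusted p = 0.00111, limma). Little of these 4 sequences is found elsewhere, for example 1.01% of H2-Aa and 0.592% of H2-Ab1 in words of 31 bases.

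The class II loading genes and the transactivator rose beside them. H2-DMb1 went from 1.71, 3.00 and 2.06 to 12.1, 8.97 and 11.6 CPM (log2 fold change 2.29, adjusted p = 0.000617, limma, with 37.6% of its sequence shared with H2-DMb2) and H2-DMa from 2.38, 3.96 and 2.19 to 10.6, 7.55 and 8.92 CPM (log2 fold change 1.70, adjusted p = 0.00428, limma). Ciita went from 16, 21 and 7 counts to 86, 54 and 63 counts, a log2 fold change of 2.05 (adjusted p = 0.00525, limma). H2-DMb2 (log2 fold change 0.52, adjusted p = 0.422), H2-Oa (0.94, adjusted p = 0.0946) and H2-Ob (0.45, adjusted p = 0.161, limma) did not pass. H2-Oa and H2-Ob encode the H2-O chains, which are found mainly in B cells. All 7 class II calls were kept in each of the 6 fits that left out 1 library.

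In class I, the rises in the livers labelled HuRHep-/- were of rarer heavy chain genes, pseudogene entries among them, and of the peptide transporter. H2-Q1 went from 11.6, 7.49 and 5.72 CPM to 73.2, 72.9 and 53.2 CPM, 8.27-fold (95% CI 4.39 to 15.6, adjusted p = 0.000455, limma), the smallest adjusted p of all members. Of its sequence 24.6% occurs in other genes, mainly H2-Q2. H2-M3 went from 2.06, 2.29 and 1.79 to 4.14, 3.81 and 4.18 CPM (1.98-fold, adjusted p = 0.00274, limma). Tap1, a chain of the peptide transporter, went from 23.2, 27.0 and 18.9 to 44.7, 49.2 and 39.7 CPM (1.95-fold, adjusted p = 0.0104, limma). The other chain, Tap2, was 1.52-fold (adjusted p = 0.01, limma).

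The polymorphic pseudogene H2-Q5 (1.82-fold, adjusted p = 0.00561), H2-Q6 (1.54-fold, adjusted p = 0.00466) and the pseudogene H2-T-ps (3.28-fold, adjusted p = 0.0145, limma) were called too, with 54.4%, 50.3% and 48.4% of their sequence shared with other genes. Several of these calls lay close to the thresholds. Tap2 was not called without chow replicate 1 or 3 or HFCF replicate 2 or 3 of this genotype, H2-Q6 without chow replicate 3, and H2-T-ps without chow replicate 2 or HFCF replicate 3. Their log2 fold changes in those fits ran from 0.56 to 0.59 for Tap2, and were 0.52 for H2-Q6 and 1.5 or 1.57 for H2-T-ps. H2-M2 had 4, 2 and 1 counts in chow and 39, 31 and 62 in HFCF (adjusted p = 0.00225, limma), but its chow counts were too few for a call.

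The abundant class I genes stayed under the fold change of 1.5. H2-D1 went from 465, 471 and 390 to 573, 575 and 594 CPM (1.32-fold, 95% CI 1.13 to 1.54, adjusted p = 0.0105, limma). H2-K1 was 1.16-fold (95% CI 1.03 to 1.31, adjusted p = 0.0485), H2-Q10 1.23-fold (95% CI 1.06 to 1.44, adjusted p = 0.0327), H2-Q4 1.44-fold (adjusted p = 0.0115) and H2-T22 1.23-fold (adjusted p = 0.0098, limma). B2m was at 0.968-fold (95% CI 0.857 to 1.09, adjusted p = 0.664, limma), Tapbp at 1.1-fold and Nlrc5 at 0.936-fold (95% CI 0.795 to 1.1, adjusted p = 0.511, limma). The sign for B2m flipped with upper-quartile factors (log2 fold change 0.031). H2-Q7 was at 0.857-fold (adjusted p = 0.185, limma).

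In WT livers 2 of 34 members rose under HFCF, both in class I, and 0 fell, beside 6.14% of all genes called higher and 3.24% lower. H2-Q1 went from 2.37, 3.18 and 5.89 to 32.8, 15.1 and 48.4 CPM, 8.10-fold (95% CI 4.30 to 15.3, adjusted p = 0.000948, limma), and was called in each fit that left out 1 library. The polymorphic pseudogene H2-T10 was 1.81-fold (adjusted p = 0.0412, limma), but 49.6% of its sequence is shared, mainly with H2-T22. It was not called without chow WT replicate 1 or 3 or HFCF WT replicate 1 or 3 (adjusted p = 0.156, 0.065, 0.0814 and 0.146, limma). The median log2 fold change was 0.62 over 10 class II and 0.42 over 23 class I members, beside 0.0095 over all genes tested. Groups did not overlap for 0 of 10 class II members and for 7 of 23 class I members, 6 higher and 1 lower, beside 17.8% (higher) and 19.8% (lower) of all genes.

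Class II estimates in WT were higher in HFCF, but the groups overlapped. H2-Aa was at 22.2, 42.3 and 32.8 CPM in chow and 50.6, 27.1 and 72.8 CPM in HFCF, 1.48-fold (95% CI 0.909 to 2.41, adjusted p = 0.221, limma). The fold changes of H2-Ab1, H2-Eb1 and Cd74 were 1.54 (95% CI 0.889 to 2.67), 1.45 (0.797 to 2.65) and 1.54 (0.915 to 2.59), with adjusted p of 0.232, 0.345 and 0.207 (limma). H2-DMa (1.69-fold, adjusted p = 0.149), H2-DMb1 (1.61-fold, adjusted p = 0.158) and Ciita (2.03-fold, adjusted p = 0.124, limma) did not pass. The lowest HFCF and the highest chow library were both replicate 2. Without HFCF WT replicate 2, 9 members were called, among them H2-Aa (adjusted p = 0.0241), H2-Ab1 (0.0408), H2-DMa (0.0351) and H2-DMb1 (0.0208, limma), while all genes called went from 1363 to 1781. Without chow WT replicate 2, 8 were called, among them Ciita (adjusted p = 0.0402), Tap1 (0.00306) and Tap2 (0.00751, limma), with 1490 of all genes.

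In class I, WT livers showed the same genes under the fold change of 1.5. H2-D1 was 1.21-fold (adjusted p = 0.0699), H2-K1 1.07-fold (adjusted p = 0.373), H2-Q10 1.25-fold (adjusted p = 0.0354), H2-Q4 1.39-fold (adjusted p = 0.0279) and B2m 0.894-fold (adjusted p = 0.164, limma). Tap1 (1.49-fold, adjusted p = 0.111), Tap2 (1.33-fold, adjusted p = 0.0713) and H2-M3 (1.36-fold, adjusted p = 0.118, limma) did not pass. Whether the response to diet differed between genotypes is the interaction above, which called no member.

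**Figure D3:**
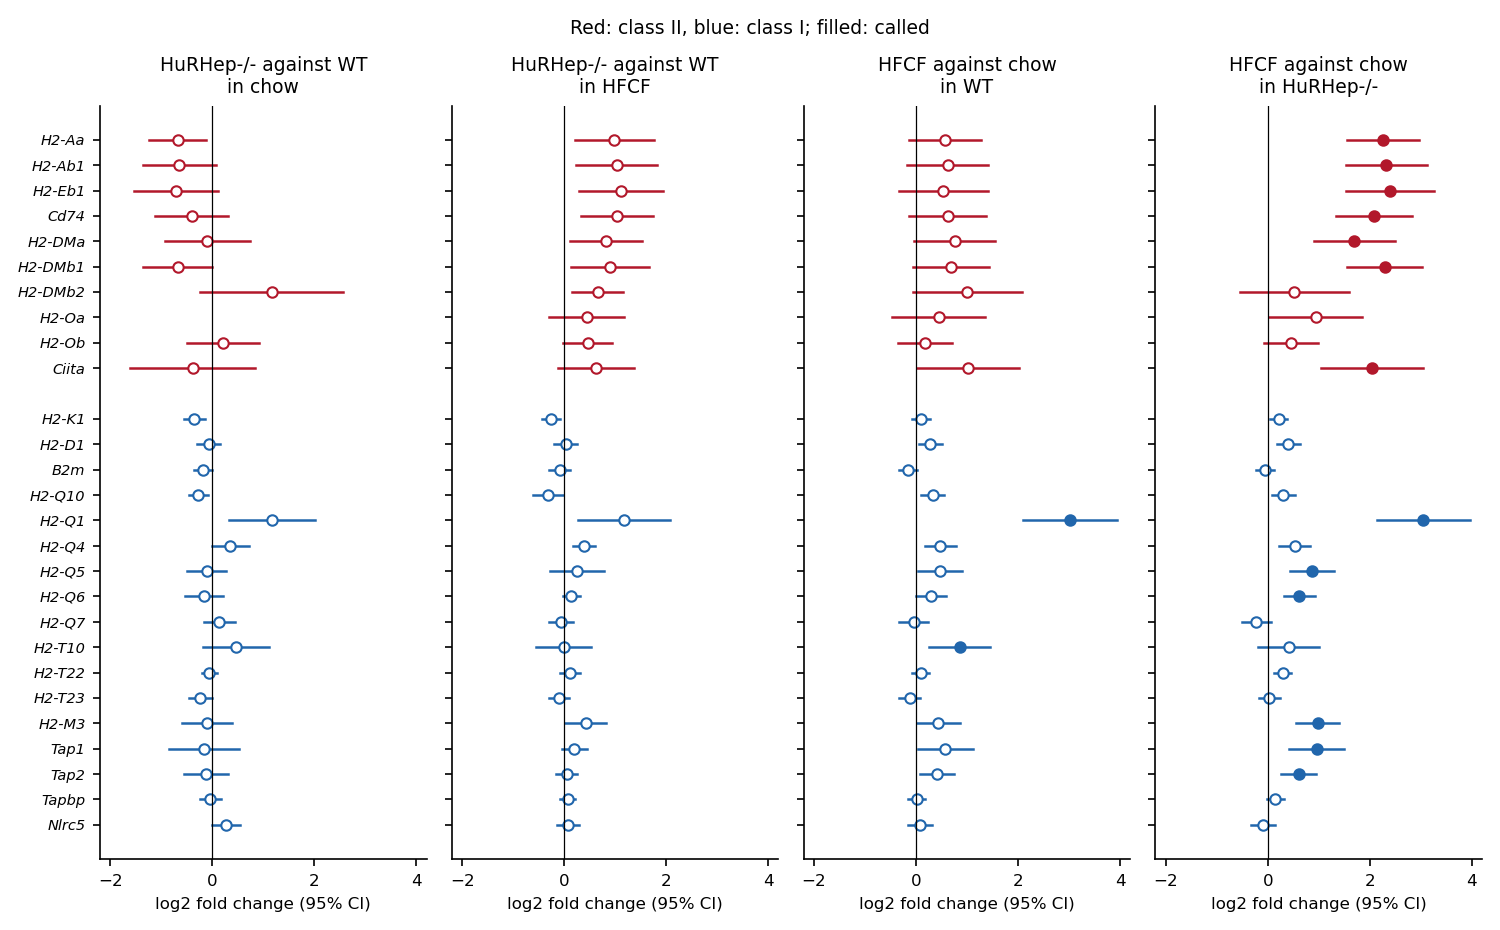
Log2 fold changes with 95% CI of 10 class II (red) and 17 class I (blue) members in the 4 comparisons, with filled points where called. In HFCF against chow of the livers labelled HuRHep-/-, 7 class II points are filled, with estimates from 1.70 to 2.39 (H2-T-ps, also called there, is not plotted), while H2-K1, H2-D1 and B2m lie between -0.048 and 0.40.

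**Figure D4:**
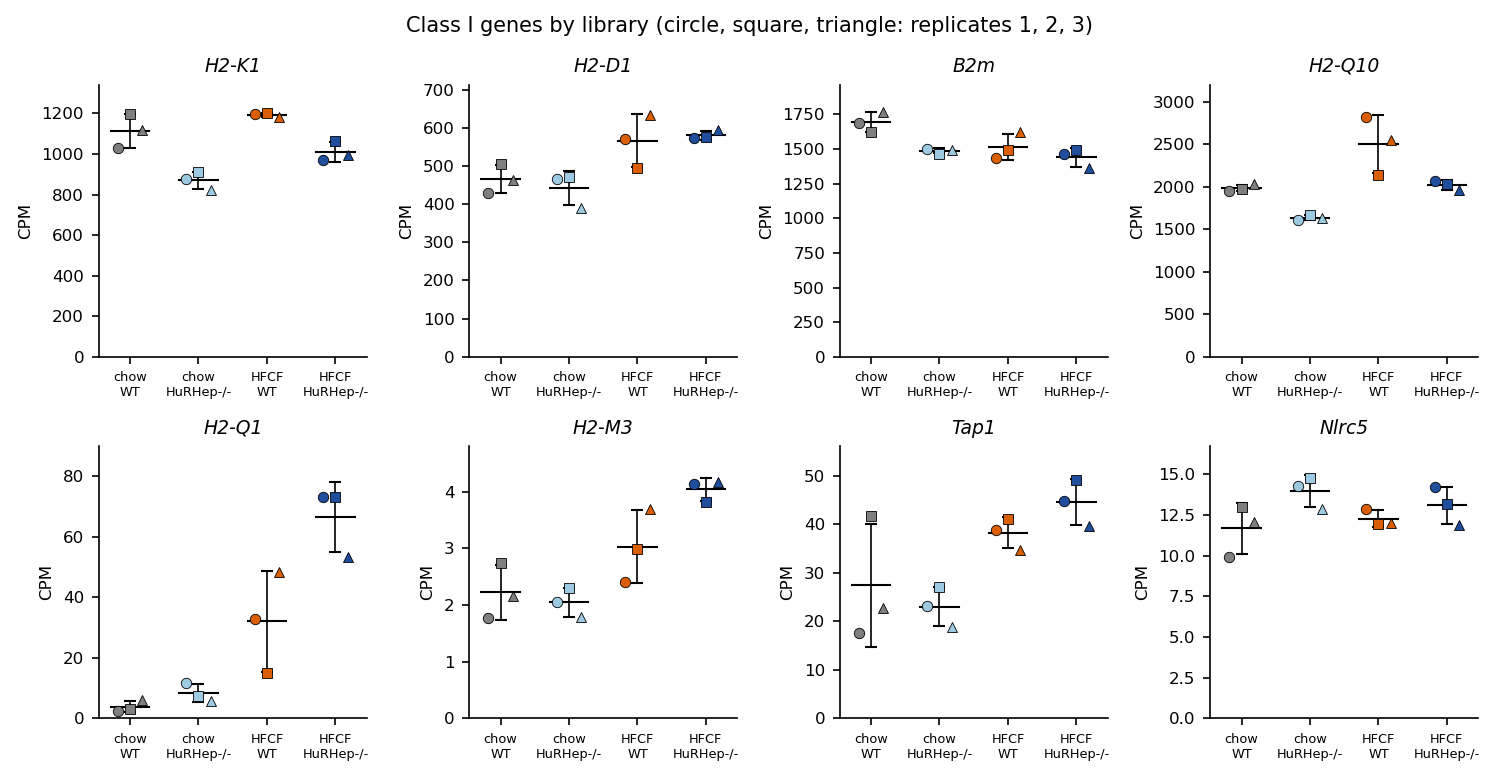
Levels in CPM of 8 class I genes in the 4 groups, 3 libraries each, with means (lines) and SD (bars). H2-Q1 separates the diets in both genotypes (at most 11.6 CPM in chow and at least 15.1 CPM in HFCF), while B2m stays between 1359 and 1766 CPM.

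Other genes of antigen presentation were counted on lists chosen by name, to be read beside the 6.14% (WT) and 14.2% (livers labelled HuRHep-/-) of all genes called higher under HFCF. Of 10 genes for class I peptide supply and loading, Psmb9, an immunoproteasome subunit, was called higher under HFCF in WT (1.80-fold, adjusted p = 0.00625) and in the livers labelled HuRHep-/- (1.89-fold, adjusted p = 0.00238, limma), and the other 9 in neither. Of 6 tested genes for class II processing, 2 rose in WT and 4 in the livers labelled HuRHep-/-. Those 4 were Ctss, the cathepsin that trims the invariant chain (2.63-fold, adjusted p = 0.00142), Ifi30 (1.87-fold, adjusted p = 0.00138), Lgmn (1.64-fold, adjusted p = 0.00584) and Cd63 (4.07-fold, adjusted p = 0.00785, limma). Of 13 transcription factors and receptors that act on MHC genes, 0 were called in WT and 3 in the livers labelled HuRHep-/-, all higher. Among these were Nfya, a subunit of NF-Y (1.79-fold, adjusted p = 0.000481), and Irf8 (2.10-fold, adjusted p = 0.00177, limma). Irf8 was also the only one of the 13 called between genotypes in HFCF (1.70-fold, adjusted p = 0.0404, limma), beside 2.15% of all genes called higher. Of 7 tested MHC-like genes, Raet1d and Raet1e, ligands of the receptor NKG2D, were lower under HFCF in WT (log2 fold change -1.87 and -2.50) and in the livers labelled HuRHep-/- (-1.06 and -2.12), with adjusted p from 0.00018 to 0.015 (limma). Among all genes, 3.24% (WT) and 4.9% (livers labelled HuRHep-/-) were called lower.

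Genes of the interferon response were called beside class II. In the livers labelled HuRHep-/- 10 of 16 rose under HFCF, among them Cxcl10 (5.38-fold), Isg15 (2.46-fold), Cxcl9 (3.58-fold) and Ifit3 (2.57-fold, adjusted p from 0.000316 to 0.00108, limma), beside 14.2% of all genes. In WT, 1 of 16 did, beside 6.14% of all genes. Between genotypes in HFCF, 4 of 16 were higher in the livers labelled HuRHep-/- (Ifit3, Isg15, Cxcl10 and Gbp2, 1.63-fold to 2.41-fold, adjusted p from 0.0189 to 0.0446, limma), beside 2.15% of all genes. In chow 0 of 16 were called. The median log2 fold change of the list under HFCF was 1.15 in the livers labelled HuRHep-/- and 0.31 in WT. The sum over the 16 genes overlapped between diets, with 356 to 406 CPM in the chow and 378 to 491 CPM in the HFCF livers labelled HuRHep-/-, but much of it was Iigp1, which had 5023 to 7480 counts per library and was not called (0.745-fold under HFCF in these livers). Their part in the class II result was not tested.

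Markers of cells that can carry class II were called under HFCF in both genotypes. In the livers labelled HuRHep-/-, 8 of 9 markers of monocytes and recruited macrophages rose, 5 of 8 of dendritic cells, 3 of 7 of Kupffer cells (the resident liver macrophages) and 0 of 6 of B cells, beside 14.2% of all genes. In WT, where 0 of 10 class II members were called, 6 of 9 markers of monocytes and recruited macrophages rose, 0 of 8 of dendritic cells, 2 of 7 of Kupffer cells and 0 of 6 of B cells, beside 6.14% of all genes. Of 7 tested markers of T and NK cells, 4 rose in the livers labelled HuRHep-/- and 0 in WT. In the chow libraries alone, only 5 of the 8 dendritic cell markers and 4 of the T and NK cell markers passed the filter on low counts. The others passed only with the HFCF libraries, so the filter favours rises in these counts. The summed level of the recruited macrophage list ran from 31.8 to 46.4 CPM in the chow livers labelled HuRHep-/- and from 93.0 to 137 CPM in their HFCF counterparts, and from 27.0 to 32.0 and from 31.9 to 110 CPM in WT. The dendritic cell list ran from 5.23 to 7.71 and from 11.7 to 20.4 CPM, and in WT from 6.49 to 7 and from 7.94 to 12.6 CPM. The Kupffer cell list ran from 196 to 290 and from 283 to 482 CPM, and in WT from 140 to 178 and from 210 to 335 CPM. The B cell list overlapped between diets, with 18.4 to 27.3 and 18 to 27 CPM.

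Among single markers, Clec4f of Kupffer cells had 1509 to 4852 counts per library, Itgax, found on dendritic cells and some macrophages, 7 to 301, Flt3 of dendritic cells 2 to 38 and Clec9a of dendritic cells 43 to 113. Itgax was 11.3-fold higher under HFCF in the livers labelled HuRHep-/- (adjusted p = 0.00101, limma) and Flt3 4.87-fold (adjusted p = 0.00314, limma), while Clec9a was at 1.19-fold with groups that overlapped (adjusted p = 0.398, limma). Flt3 had 2 to 9 counts per chow library and passed the filter on low counts only with the HFCF libraries. HFCF WT replicate 2, low in class II, had the lowest HFCF sum for the recruited macrophage (31.9 CPM), dendritic (7.94 CPM) and stellate cell lists (67.2 CPM). Chow WT replicate 2, high in class II, stood within the other chow WT libraries for recruited macrophage markers (30.4 CPM) and at 6.49 CPM, the lowest of them, for dendritic cell markers. It was the highest chow WT library for Kupffer cell (178 CPM), stellate cell (81 CPM) and cholangiocyte markers (79 CPM) and for the interferon list (510 CPM), and the lowest for hepatocyte markers (99200 CPM). The part of these cell types in the class II result was not tested.

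Other lists moved in the same livers. All 7 stellate cell markers and 5 of 5 tested cholangiocyte markers rose under HFCF in the livers labelled HuRHep-/-, beside 14.2% of all genes, with sums of 191 to 251 CPM against 49.2 to 79.2 CPM and of 133 to 242 CPM against 47.1 to 77.3 CPM. In WT, 1 of 7 and 0 of 5 rose. Pecam1 was the only one of 7 sinusoidal endothelial markers called (1.59-fold), and Csf3r the only one of 3 tested neutrophil markers (2.08-fold). The hepatocyte list, by which the liver label was checked, summed to 71241 to 81025 CPM in HFCF WT and 64884 to 69791 CPM in the HFCF livers labelled HuRHep-/-, each below the chow values of the same genotype given above. Of these 8 genes, Serpina1c fell in both genotypes under HFCF (log2 fold change -0.75 and -0.80).

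**Figure D5:**
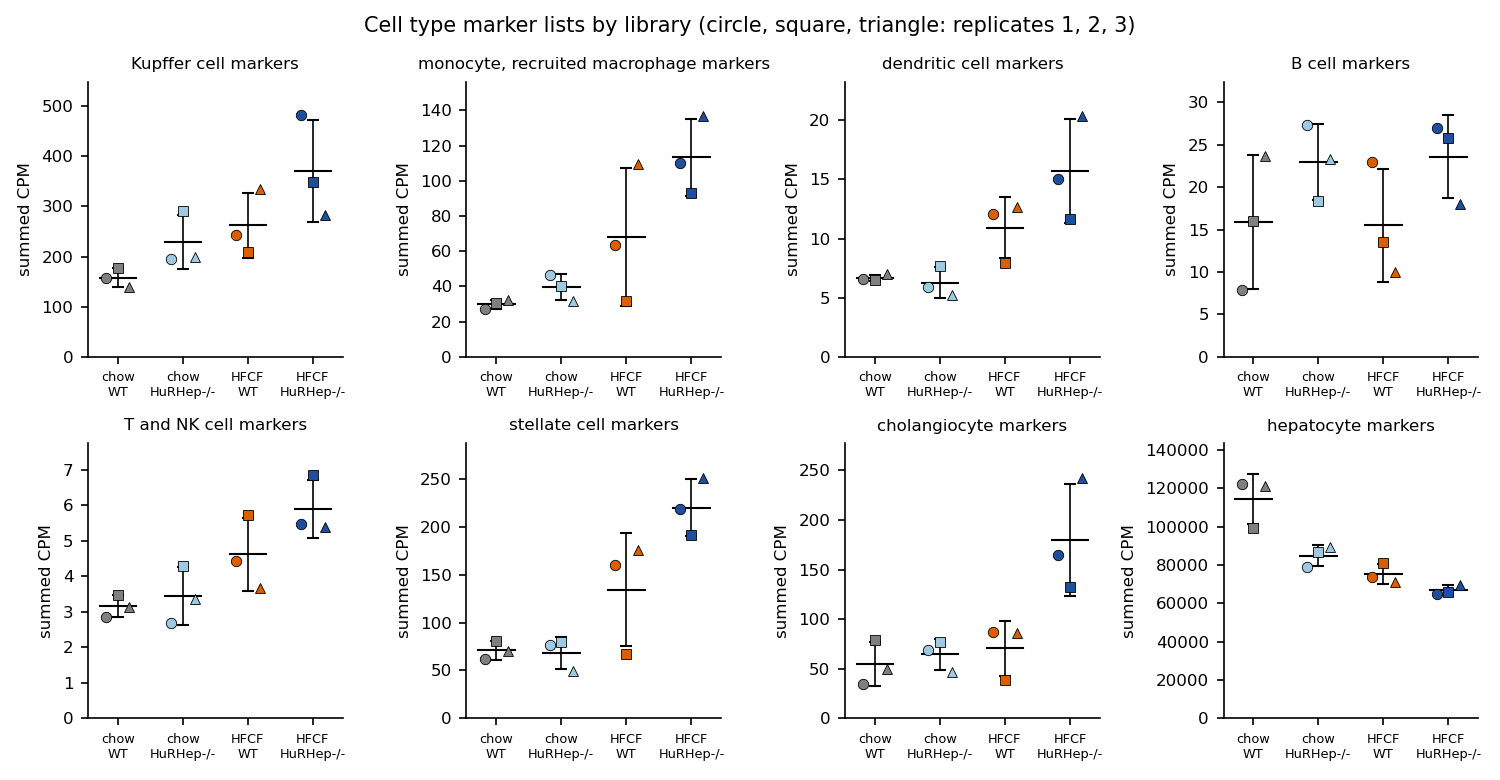
Summed CPM of 8 marker lists by library in the 4 groups, with means (lines) and SD (bars). Sums for recruited macrophage, dendritic, stellate cell and cholangiocyte markers are highest in mean in the HFCF livers labelled HuRHep-/-, and HFCF WT replicate 2 (square) is the lowest HFCF library in these 4 panels, while the B cell list overlaps between diets.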

How the data were processed

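Liver RNA of 12 libraries was prepared with a stranded kit. Per the methods of the study and the labels, the authors aligned reads to GRCm38.p6 in CLC Genomics Workbench with reverse strand alignment. The authors deposited whole-number read counts per gene, without normalization, in 1 table per diet. The values are text with comma separators (21506 in chow, 23123 in HFCF), so their unit was recorded as other and limma was used in place of a count model. Commas were removed here, and positions and exon lengths came from the GENCODE annotation of the same build. Counts were turned into log2 CPM with a pseudocount of 0.5 and TMM factors written anew on genes that reached, in 3 or more libraries, the CPM worth 10 counts at median depth, and 15 counts in total.

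The fits used limma 3.58.1 in R 4.3.3 with a variance trend and Benjamini-Hochberg adjustment, and other steps used Python 3.11.15. Genotype was tested within each table, and diet and interaction over 12 libraries on genes in both tables. Calls took the p and fold limits of the study (adjusted p up to 0.05, 1.5-fold or more), with 10 or more summed counts in both groups. Levels are CPM with factors over 12 libraries. The fits were tested on simulated counts. Depth was 30071731 to 35949203 counts per library.

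Members and lists were chosen with earlier results of these data known. Genes named were Elavl1, a fixed list of class I and class II genes, every other member called and, of other lists, up to 4 called genes by smallest p, with others given as counts or ranges. Some listed markers are named for their levels, and H2-M2, H2-Eb2 and other genes with few counts were named after their values were seen. Shared sequence is the share of 31-base words of the longest transcript found in other genes. Promoters came from RefSeq. Alternatives were other factors, filters, pseudocount, voom weights, a replicate block, other library sets and leaving out each library. Values of some listed genes are not reported here.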

Additional observations from a re-analysis of the deposited data

How the results depend on the processing

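No member was called between genotypes in chow, or by the interaction, under any alternative run (limma). In HFCF, 0 members were called between genotypes, with a range of 0 to 5 when 1 library was left out, and 5 (H2-Aa, H2-Ab1, H2-Eb1, Cd74 and H2-DMb1, adjusted p = 0.0386, 0.0395, 0.0285, 0.0312 and 0.0443, limma) with the replicate block. The numbers share no stated animal or batch, and deviations of same-numbered libraries correlated at 0.0878, 0.188 and 0.0866 in HFCF and at -0.0298, 0.109 and -0.0033 in chow, so the block is not taken as pairing. In the other comparisons the block left the number of members called as it was. For diet in WT, 2 members were called, 1 without a filter, with voom weights or on the 6 libraries of the genotype, 5 without a fold threshold, and 1 to 9 with 1 library left out. For diet in the livers labelled HuRHep-/-, 12 to 14 members were called with 1 library left out and 12 to 19 under the other settings. Without a fold threshold, genes called over the whole table went from 303 to 564 (chow), 517 to 958 (HFCF), 1363 to 3429 (diet in WT) and 2771 to 5565 (diet in the livers labelled HuRHep-/-). With 1 library left out they ran from 8 to 320, 28 to 850, 847 to 1781 and 2152 to 2510, and from 0 to 34 for the interaction (34 without HFCF WT replicate 3). The fit without 1 library has fewer samples, and the cause of the other shifts was not tested. The log2 ratio of class II to class I in the HFCF livers labelled HuRHep-/- moved from -3.65 to -3.29 with class I restricted to H2-K1, H2-D1 and B2m. B2m under HFCF in those livers changed sign with upper-quartile factors (0.031). With 1 library left out, H2-D1 between genotypes in chow ran from -0.131 to 0.016. Of 143 values of named genes, 21 changed sign under at least 1 alternative, 0 of them called. Depth limits Ciita, H2-DMb2, H2-Oa, H2-Ob and H2-M2, with few counts per library.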
